A study of Mus musculus with 8 samples.

Results

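The genes described here are the core genes of autophagy, the process by which a cell encloses part of its cytoplasm in a double membrane, the autophagosome, and delivers it to the lysosome for breakdown. The set was a list of 35 mouse symbols, and all 35 were found among the 49315 gene identifiers of the count files. Autophagy starts with the ULK1 kinase complex, proceeds through a lipid kinase complex that marks the forming membrane, and ends with the attachment of LC3 and GABARAP proteins to that membrane, which cargo receptors then bind. In CD8 T cells it is known for its part in survival after activation and in memory formation.

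Polyadenylated RNA was sequenced from CD8 T cells of OT-I mice, whose transgenic receptor recognises an ovalbumin peptide, in 4 Carm1 KO and 4 Control KO libraries. The Carm1 KO cells were nucleofected with a Cas9 guide RNA against Carm1, which encodes an arginine methyltransferase and transcriptional coactivator, and the Control KO cells, also labelled WT, with a guide RNA against the bacterial gene LacZ. Both arms were naive cells from spleen and lymph node that had been kept in interleukin-7 (2.5 ng/ml) plus interleukin-15 (50 ng/ml), and RNA was taken 7 days after editing, whereas the overall design names B16F10 melanoma cells carrying ovalbumin as co-culture partners, which the sample protocols do not mention. By the labels, an arm's 4 libraries are technical replicates, and neither the age nor the number of the mice is given. The p-values therefore cover only the spread among libraries, which may be technical, and an effect of the edit and one of the cell preparation cannot be told apart.

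Total counts ran from 37556330 to 39988442 in the Carm1 KO libraries and from 38768760 to 41439998 in the Control KO libraries. Levels are CPM, each gene's count relative to the library's total, with totals scaled by trimmed mean of M values (TMM), and log2 fold changes, given ± standard error (SE), are Carm1 KO over Control KO. The edited gene Carm1 was at 32.8 ± 0.493 CPM in Carm1 KO and 95.9 ± 1.04 CPM in Control KO libraries (SD, n = 4 each). Of the 8 CD8 T cell markers, 5 were higher and 3 (Thy1, Cd2 and Lck) lower in Carm1 KO libraries. The most abundant, Cd8a and Thy1, were at 1973 ± 5.32 and 1048 ± 13.0 CPM in Carm1 KO and at 1573 ± 13.6 and 1663 ± 19.7 CPM in Control KO libraries. All 10 macrophage and monocyte markers were lower in Carm1 KO libraries, where they summed to 8.56 to 10.5 CPM, against 146 to 152 CPM in Control KO libraries. The share of counts from mitochondrially encoded genes was 1.11% ± 0.0184 in Carm1 KO and 0.604% ± 0.00804 in Control KO libraries. Of the 14970 genes tested, 13135 passed at an adjusted p under 0.05.

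Transcripts of the 35 listed core genes were mostly higher in the Carm1 KO libraries. The list was chosen with earlier results of these data known, and the further pathway lists given below moved in both directions. Of the 35 members, 26 rose, 8 fell and Atg5 did not pass (edgeR quasi-likelihood test, adjusted over all genes), a total of 97.1% called. Over all genes tested 87.7% were called, 44.5% higher and 43.2% lower. The median log2 fold change was 0.39 over the members and 0.02 over all genes tested. The largest rises were those of Map1lc3a, which encodes an LC3 protein, and Wipi1, a phosphoinositide-binding protein, at 4.78-fold and 4.74-fold. With TMM factors, the only member at least 2-fold lower was Optn, a cargo receptor. The groups did not overlap for 33 of the 35 members, against 83.4% of all genes tested.

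Few of the differences were large. With TMM factors, only 6 members (17.1%) passed and differed at least 2-fold, against 35.7% of all genes tested. Ulk1, Wipi1, Atg16l2, Atg4c and Map1lc3a were higher in Carm1 KO libraries, and Optn was lower. This list depended on the scaling. With upper-quartile factors Atg2a, Atg12 and Atg14 also reached 2-fold (log2 fold changes 1.11, 1.13 and 1.09), and Optn did not (-0.92). Atg2a, Atg12 and Atg14 also reached it with library totals alone (1.06, 1.07 and 1.03). In a test against a 1.5-fold change, 13 members (37.1%) passed, 11 higher and 2 lower, against 49.7% of all genes tested. The median size of the log2 fold change, regardless of sign, was 0.56 over the members and 0.69 over all genes tested. The 35 members took 0.244% ± 0.00154 of all counts in Carm1 KO and 0.180% ± 0.000908 in Control KO libraries. This share uses no TMM factor and so rests on library totals alone. On that scale the median log2 fold change was 0.55 over the members and 0.18 over all genes tested. In bulk RNA, fewer cells of a type and less RNA per cell cannot be told apart, and the part of the lower myeloid markers in these differences was not tested.

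**Figure D1:**
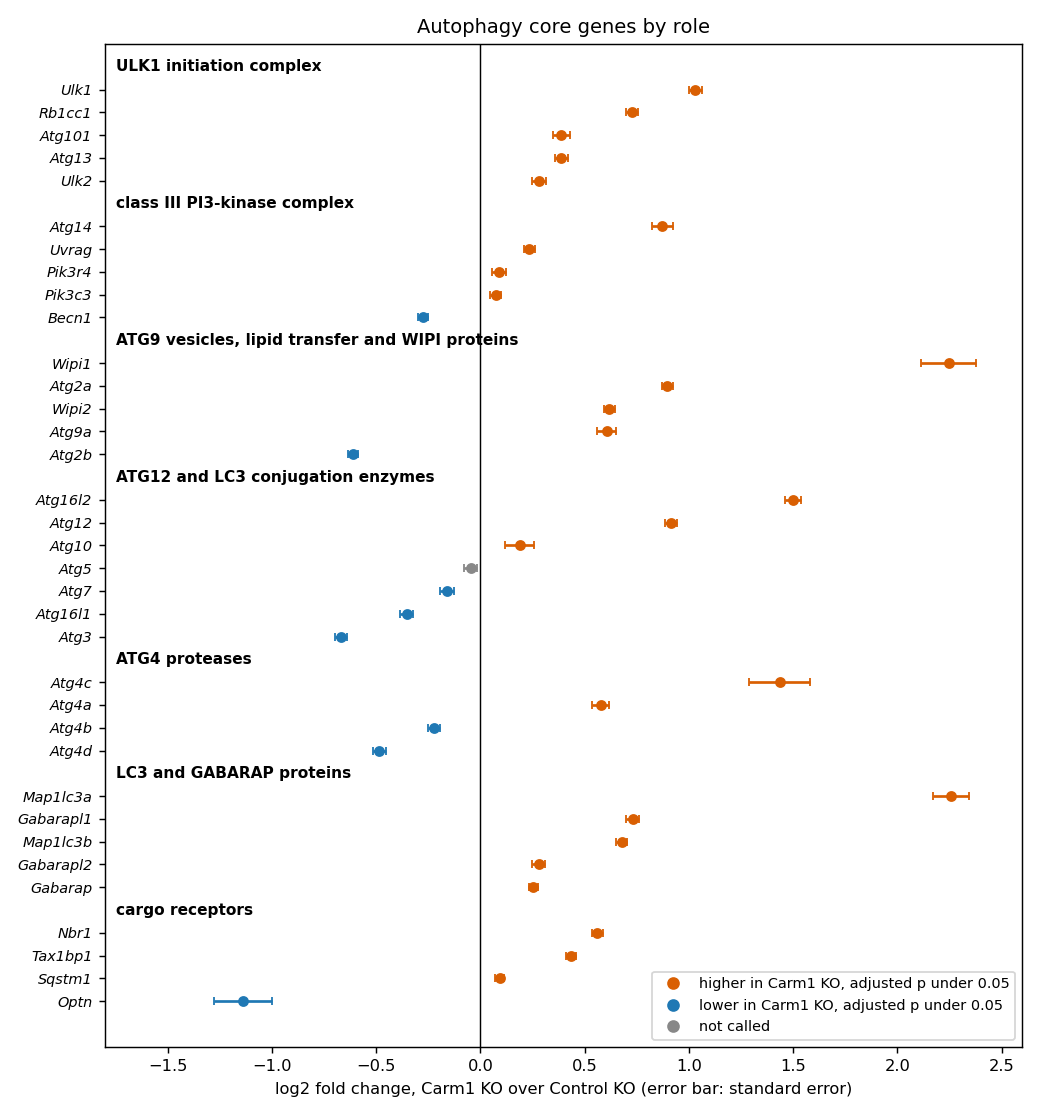
Log2 fold change of each of the 35 autophagy core genes, Carm1 KO over Control KO, grouped by role, with the standard error as bars. All members of the ULK1 complex and of the LC3 and GABARAP family lie right of 0, and the other groups hold members on both sides.

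**Figure D2:**
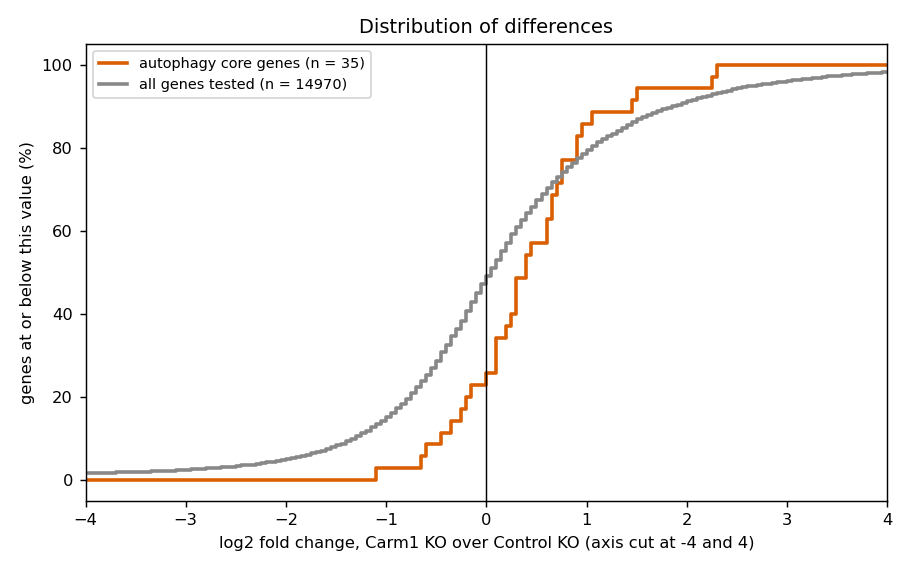
Percentage of genes (vertical axis) at or below a given log2 fold change, Carm1 KO over Control KO (horizontal axis), for the 35 autophagy core genes and the 14970 genes tested. The members' curve lies to the right at low values and reaches the top within the range of -1.14 to 2.26.

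All 5 genes of the ULK1 initiation complex rose. Ulk1, the kinase that starts autophagosome formation, was at 69.4, 68.0, 70.8 and 65.1 CPM in the Carm1 KO libraries and at 33.1, 34.4, 31.8 and 34.6 CPM in the Control KO libraries. Every Carm1 KO library lay above every Control KO library, a 2.04-fold difference (log2 fold change 1.03 ± 0.032 SE, adjusted p = 1.4e-28). Rb1cc1, which encodes the scaffold FIP200, was at 69.6, 72.8, 69.9 and 72.8 CPM in the Carm1 KO libraries and at 44.7, 43.8, 42.0 and 41.7 CPM in the Control KO libraries, again without overlap (log2 fold change 0.73 ± 0.029, adjusted p = 1.2e-24). Smaller rises were found for the adaptors Atg13 and Atg101, both 1.31-fold, and for the second kinase gene Ulk2, 1.22-fold. Ulk2 ran from 44.5 to 46.8 CPM in Carm1 KO and from 36.7 to 38.9 CPM in Control KO libraries. Of the exon bases of Rb1cc1, 3.80% overlap the antisense gene 4732440D04Rik, which the library kit cannot tell apart by strand.

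Of the 5 genes of the class III phosphatidylinositol 3-kinase complex, which makes the lipid mark of the forming membrane, 4 rose and 1 fell. The catalytic and regulatory subunits differed little. Pik3c3, the catalytic subunit, was at 65.9 to 67.1 CPM in Carm1 KO and 62.8 to 63.6 CPM in Control KO libraries (log2 fold change 0.07 ± 0.026, adjusted p = 0.0088). Pik3r4, its regulatory subunit, was at 46.4 to 49.1 CPM in Carm1 KO and 43.5 to 48.6 CPM in Control KO libraries, which overlap (log2 fold change 0.09 ± 0.033, adjusted p = 0.014). Both calls were lost with the DESeq2 test (adjusted p = 0.21 for Pik3c3 and 0.20 for Pik3r4). The same held for edgeR with no filter on low counts (adjusted p = 0.15 and 0.086). Leaving out some of the libraries also lost them. Pik3c3 gave an adjusted p = 0.060 without Control KO replicate 4, and Pik3r4 one of 0.092, 0.077 and 0.14 without Control KO replicates 1, 2 and 3.

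The other 3 subunits differed by more, and not all in the same direction. Atg14, which directs the complex to autophagosome formation, was at 19.4, 19.2, 21.1 and 18.5 CPM in the Carm1 KO libraries and at 10.6, 10.5, 11.3 and 10.4 CPM in the Control KO libraries. The groups were well apart, and the rise was 1.83-fold (log2 fold change 0.87 ± 0.051, adjusted p = 3.9e-19). Uvrag, a subunit of the complex at endosomes, rose 1.18-fold. Becn1, the shared subunit Beclin 1, fell to 101, 106, 106 and 102 CPM in the Carm1 KO libraries, against 126, 128, 124 and 126 CPM in the Control KO libraries. That is a 1.21-fold difference (log2 fold change -0.27 ± 0.024, adjusted p = 2.1e-13), and Becn1 shares 43.9% of its exon bases with Cntd1 on the other strand, which held a mean of 44.8 counts in Carm1 KO and 22 counts in Control KO libraries.

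Of the 5 genes for ATG9 vesicles, lipid transfer and the WIPI proteins that read the lipid mark, 4 rose and 1 fell. The lipid transfer proteins moved in opposite directions. Atg2a was at 103, 104, 109 and 100.2 CPM in the Carm1 KO libraries and at 54.8, 57.0, 54.8 and 56.9 CPM in the Control KO libraries, a 1.86-fold rise (log2 fold change 0.90 ± 0.027, adjusted p = 3.0e-29). Atg2b was at 56.3, 57.0, 56.7 and 56.8 CPM in the Carm1 KO libraries and at 86.9, 88.1, 84.2 and 87.1 CPM in the Control KO libraries, a 1.53-fold fall (log2 fold change -0.61 ± 0.025, adjusted p = 2.9e-24). Neither pair of groups overlapped, so the gene with more counts differed between the arms.

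Wipi1 was scarce in both arms but higher in every Carm1 KO library. It was at 4.42, 5.10, 4.12 and 3.61 CPM in the Carm1 KO libraries and at 0.963, 1.01, 0.841 and 0.819 CPM in the Control KO libraries (log2 fold change 2.25 ± 0.13, adjusted p = 3.4e-19). Wipi2, which brings the ATG16L1 complex to the membrane, was more abundant and rose 1.53-fold, to 78.6 to 81.0 CPM in Carm1 KO, against 49.5 to 53.8 CPM in Control KO libraries. Atg9a, which encodes a lipid scramblase carried on vesicles, rose 1.52-fold, to 22.3 ± 0.799 CPM in Carm1 KO, against 14.7 ± 0.369 CPM in Control KO libraries. Part of the Atg9a exons, 31.8%, is shared with the predicted gene Gm29253 on the same strand, which held about 1 count per library.

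The 7 conjugation genes, whose products attach ATG12 to ATG5 and LC3 to lipid, were split, with 3 rising, 3 falling and 1 not passing. Atg16l2, which encodes a homologue of the scaffold ATG16L1, was at 61.2, 60.1, 59.5 and 61.2 CPM in the Carm1 KO libraries and at 20.2, 23.5, 21.5 and 20.4 CPM in the Control KO libraries. Its rise was 2.83-fold (adjusted p = 1.7e-32), and no Carm1 KO library came near the Control KO range. Atg16l1 itself was at 37.5, 37.5, 37.7 and 36.2 CPM in the Carm1 KO libraries and at 47.4, 47.9, 48.1 and 46.7 CPM in the Control KO libraries, a 1.28-fold fall (log2 fold change -0.35 ± 0.031, adjusted p = 1.0e-13). These homologues therefore moved apart, with no overlap of the groups for either.

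Atg12, the ubiquitin-like protein of the first conjugation, was at 77.5, 75.5, 82.0 and 80.7 CPM in the Carm1 KO libraries and at 41.7, 41.1, 42.1 and 42.6 CPM in the Control KO libraries (1.89-fold, log2 fold change 0.91 ± 0.029, adjusted p = 3.1e-28). Its partner Atg5 was at 45.1, 42.3, 42.3 and 44.4 CPM in the Carm1 KO libraries and at 45.4, 44.8, 43.2 and 46.5 CPM in the Control KO libraries. The Atg5 groups overlapped (log2 fold change -0.05 ± 0.032, adjusted p = 0.17), and its direction turned with the scaling, to 0.17 with upper-quartile factors and 0.11 with library totals alone. Atg3, the enzyme that transfers LC3 to lipid, was at 50.7, 48.2, 46.9 and 46.7 CPM in the Carm1 KO libraries and at 74.3, 76.1, 77.3 and 78.2 CPM in the Control KO libraries. It fell 1.59-fold (log2 fold change -0.67 ± 0.029, adjusted p = 1.2e-23), the largest fall of a member above 3 CPM. Atg7, the activating enzyme of both conjugations, was at 31.7 to 33.4 CPM in Carm1 KO and 36.1 to 37.8 CPM in Control KO libraries (log2 fold change -0.16 ± 0.034), which turned to 0.053 with upper-quartile factors. Atg10, the transfer enzyme for ATG12, was at 6.82 ± 0.352 CPM in Carm1 KO and 5.98 ± 0.364 CPM in Control KO libraries (log2 fold change 0.19 ± 0.069, adjusted p = 0.011). This call was lost without Control KO replicate 2 (adjusted p = 0.060) or Carm1 KO replicate 4 (adjusted p = 0.065), and with the DESeq2 test (adjusted p = 0.12).

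**Figure D3:**
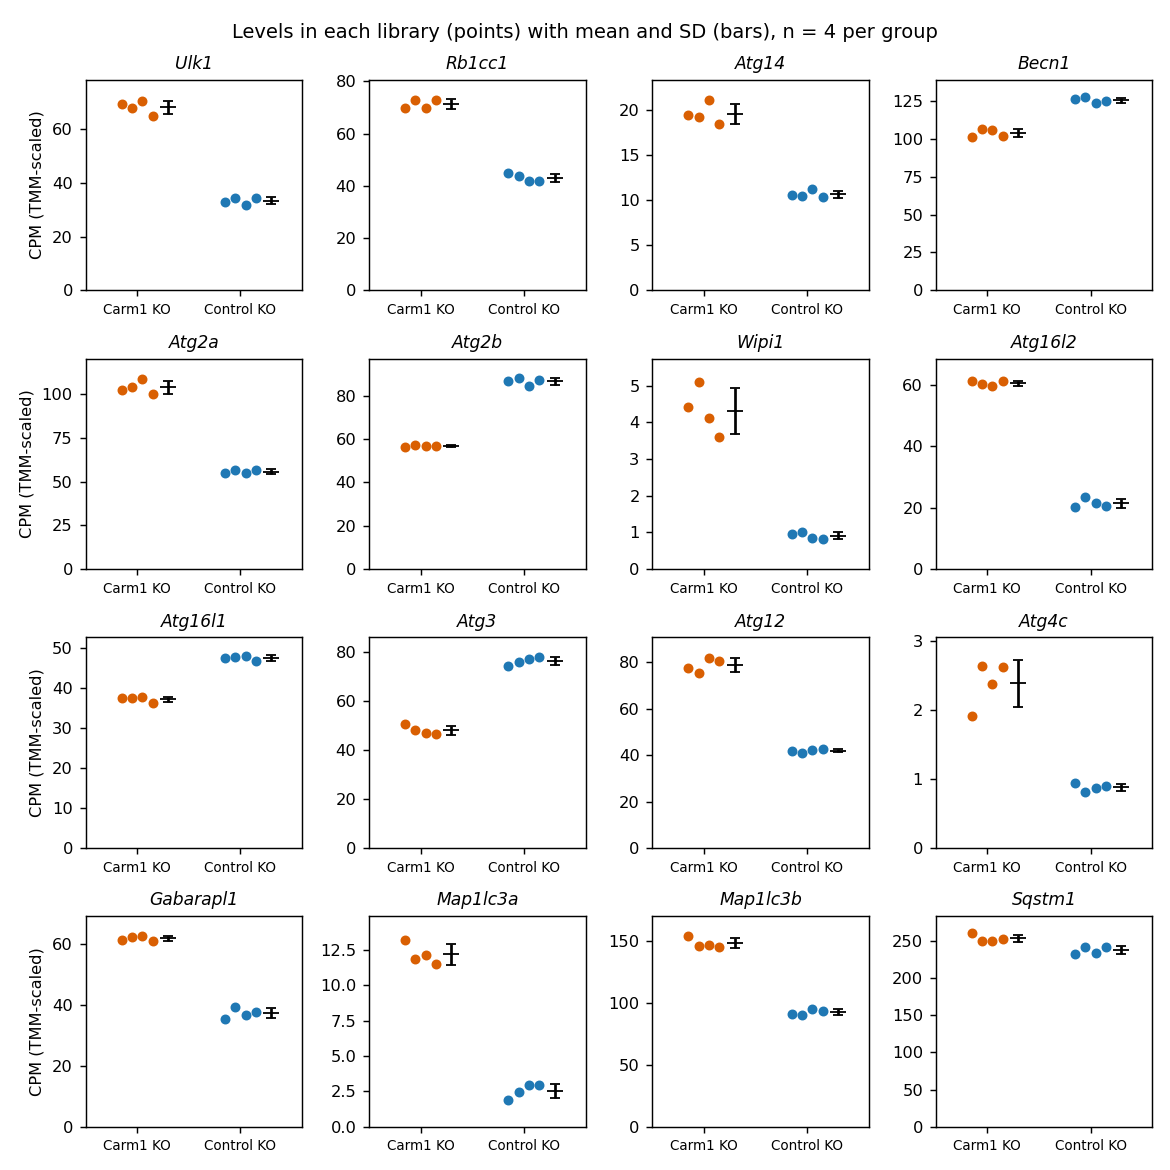
TMM-scaled CPM of 16 autophagy genes in each library, 4 points per group with the mean and SD beside them, on axes that start at 0. The groups are apart in all 16 panels, with Map1lc3a, Wipi1, Atg16l2 and Atg4c the farthest apart relative to their Control KO level.

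The promoters of Atg3 and Atg14 are shown because they hold the E-box core CACGTG, the letters within the site that TFEB and related transcription factors of lysosome and autophagy genes bind, while their transcripts moved in opposite directions. The windows run from 250 bases before to 50 after the RefSeq start on GRCm38.p6 and read 5′ to 3′ on the gene's strand, with the motif in capitals. The Atg3 window is chr16:45158579-45158878 on the plus strand, and the Atg14 window is chr14:47568385-47568684 on the minus strand.
Atg3: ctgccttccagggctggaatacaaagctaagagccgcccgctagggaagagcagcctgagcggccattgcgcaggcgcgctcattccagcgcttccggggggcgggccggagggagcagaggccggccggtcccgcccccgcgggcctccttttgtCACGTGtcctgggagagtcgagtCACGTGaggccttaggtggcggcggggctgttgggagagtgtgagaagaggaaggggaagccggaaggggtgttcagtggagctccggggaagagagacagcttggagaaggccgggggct
Atg14: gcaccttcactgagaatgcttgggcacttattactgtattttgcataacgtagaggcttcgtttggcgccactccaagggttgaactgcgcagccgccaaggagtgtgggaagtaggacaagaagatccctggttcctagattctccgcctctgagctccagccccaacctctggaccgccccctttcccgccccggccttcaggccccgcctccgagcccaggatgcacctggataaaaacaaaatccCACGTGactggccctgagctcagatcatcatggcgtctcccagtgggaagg
The Atg3 window holds the core at 2 places, the second of them within the longer palindrome TCACGTGA, and Atg3 fell 1.59-fold. The Atg14 window holds it once, across the start, and Atg14 rose 1.83-fold. Of the 29 members with a window, 4 (13.8%) held CACGTG on either strand, the others being Atg5 and Atg7. A gene with several windows was counted if any of them held the motif. The share was 8.09% of all 27025 genes with a window and 11.6% of tested genes with a window. Among the same 29 members TCACGTGA, which contains the core, was found for Atg3 alone (3.45%). It was found for 1.125% of all genes with a window and 2.20% of tested genes with a window. The forkhead motif GTAAACA was found for 0 of the 29 members, against 4.05% of all genes with a window and 3.15% of tested genes with a window. Members with the core thus included 1 that rose, 2 that fell and 1 that did not pass. Of these, the Atg7 window (chr6:114670846-114671145, plus strand) lies within the gene, whose first exon starts at 114643097.

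Of the 4 ATG4 proteases, which trim LC3 and GABARAP proteins before conjugation and release them from lipid, 2 rose and 2 fell. Atg4c was scarce, at 1.91, 2.64, 2.37 and 2.63 CPM in the Carm1 KO libraries and at 0.938, 0.816, 0.868 and 0.901 CPM in the Control KO libraries. It rose 2.70-fold (log2 fold change 1.44 ± 0.15, adjusted p = 1.0e-11). Atg4a rose 1.49-fold, to 29.7 to 31.3 CPM in Carm1 KO, against 19.9 to 21.4 CPM in Control KO libraries. A pseudogene with a similar name, Atg4a-ps, held 7 to 22 counts in a library. Atg4d fell 1.40-fold, to 36.8 to 38.4 CPM in Carm1 KO, against 51.1 to 54.8 CPM in Control KO libraries. Its exons overlap those of Kri1 on the other strand over 19.3% of their length, and Kri1 held a mean of 1299 counts in Carm1 KO and 1804 counts in Control KO libraries, so part of the Atg4d reads cannot be told apart from it. Atg4b was at 46.6 to 50.4 CPM in Carm1 KO and 55.2 to 56.3 CPM in Control KO libraries (log2 fold change -0.22 ± 0.030, adjusted p = 8.8e-09), but its adjusted p was 0.83 under upper-quartile factors and 0.053 under library totals.

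All 5 genes of the LC3 and GABARAP family, the ubiquitin-like proteins that coat the autophagosome, rose. Map1lc3a was at 13.2, 11.9, 12.1 and 11.5 CPM in the Carm1 KO libraries and at 1.90, 2.45, 2.93 and 2.95 CPM in the Control KO libraries. The lowest Carm1 KO library was well above the highest Control KO library (log2 fold change 2.26 ± 0.086, adjusted p = 2.1e-23). Map1lc3b, the form most used as an autophagy marker, was at 154, 146, 147 and 146 CPM in the Carm1 KO libraries and at 91.6, 90.6, 95.1 and 94.0 CPM in the Control KO libraries, a rise without overlap (log2 fold change 0.68 ± 0.025, adjusted p = 6.9e-26). Gabarapl1 was at 61.4, 62.4, 62.7 and 61.2 CPM in the Carm1 KO libraries and at 35.5, 39.5, 36.7 and 37.8 CPM in the Control KO libraries, a 1.66-fold rise (log2 fold change 0.73 ± 0.031, adjusted p = 8.2e-24). Gabarap and Gabarapl2, which encode the other two proteins of the GABARAP branch, rose less, 1.19-fold and 1.21-fold. Gabarap ran from 168 to 174 CPM in Carm1 KO and from 141 to 144 CPM in Control KO libraries, and Gabarapl2 from 60.2 to 66.3 CPM in Carm1 KO and from 52.1 to 53.3 CPM in Control KO libraries.

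Because the members of this family rose by different amounts, its make-up differed between the arms. Per kb of exon, Gabarap made up 51.2% ± 0.468 of the family's transcripts in Carm1 KO and 58.2% ± 0.363 in Control KO libraries (SD, n = 4 each). Map1lc3a made up 5.70% ± 0.309 in Carm1 KO and 1.62% ± 0.301 in Control KO libraries, and Map1lc3b 10.9% ± 0.225 in Carm1 KO and 9.27% ± 0.239 in Control KO libraries. Gabarapl1 took 16.6%, 17.4%, 17.5% and 16.7% of the family in the Carm1 KO libraries and 13.5%, 14.5%, 13.7% and 13.9% in the Control KO libraries. These shares do not depend on the scaling factors but do depend on the exon lengths in the files, which combine all annotated transcripts, as for Map1lc3b with 7517 bases against 2633 bases in its longest coding transcript in GENCODE M21.

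Of the 4 cargo receptors, which link tagged cargo to LC3, 3 rose and 1 fell. Nbr1 rose 1.47-fold, to 88.6 to 91.1 CPM in Carm1 KO, against 59.2 to 64.1 CPM in Control KO libraries, and Tax1bp1 rose 1.35-fold, to 219 to 232 CPM in Carm1 KO, against 159 to 168 CPM in Control KO libraries. Sqstm1, which encodes p62, was at 260.2, 249.5, 249.95 and 251.6 CPM in the Carm1 KO libraries and at 231.7, 241.5, 233.6 and 241.8 CPM in the Control KO libraries. Its groups were close but did not overlap (log2 fold change 0.09 ± 0.022, adjusted p = 0.00026). Optn, optineurin, was scarce, at 1.05, 1.11, 1.10 and 1.33 CPM in the Carm1 KO libraries and at 2.26, 2.85, 2.06 and 2.95 CPM in the Control KO libraries. It fell 2.20-fold (log2 fold change -1.14 ± 0.14, adjusted p = 1.2e-09), in libraries where macrophage and monocyte markers were lower too, whose part in this fall was not tested.

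Ratios between related genes within a library compare them without any scaling factor. The ratio of Atg2a to Atg2b per kb of exon was 2.41, 2.42, 2.54 and 2.33 in the Carm1 KO libraries and 0.834, 0.856, 0.862 and 0.863 in the Control KO libraries, 2.84 times higher on average. The ratio of Atg16l1 to Atg16l2 went the other way, at 0.538, 0.548, 0.557 and 0.521 in the Carm1 KO libraries and 2.06, 1.80, 1.97 and 2.01 in the Control KO libraries. Ulk1 to Ulk2 was 1.37 ± 0.0269 in Carm1 KO and 0.815 ± 0.0466 in Control KO libraries, and Map1lc3a to Map1lc3b was 0.522 ± 0.0178 in Carm1 KO and 0.175 ± 0.0311 in Control KO libraries. Wipi1 to Wipi2 was 0.129 ± 0.0179 in Carm1 KO and 0.0417 ± 0.00332 in Control KO libraries. Of the 10 ratios computed, only that of Gabarapl2 to Gabarap overlapped between the groups. It was 0.296 ± 0.00920 in Carm1 KO and 0.292 ± 0.00158 in Control KO libraries. Taken singly, 83.4% of all genes tested did not overlap between the groups. The share without overlap among ratios of other genes was not computed. Each ratio's level depends on the lengths used, but its fold between the groups does not. With the longest coding transcripts, Atg16l1 to Atg16l2 was 1.27 in Carm1 KO and 4.60 in Control KO libraries, and Atg4d to Atg4b was 0.555 in Carm1 KO and 0.666 in Control KO libraries, so neither crossed 1. Atg4a to Atg4b did so with these lengths, at 1.23 in Carm1 KO and 0.704 in Control KO libraries.

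**Figure D4:**
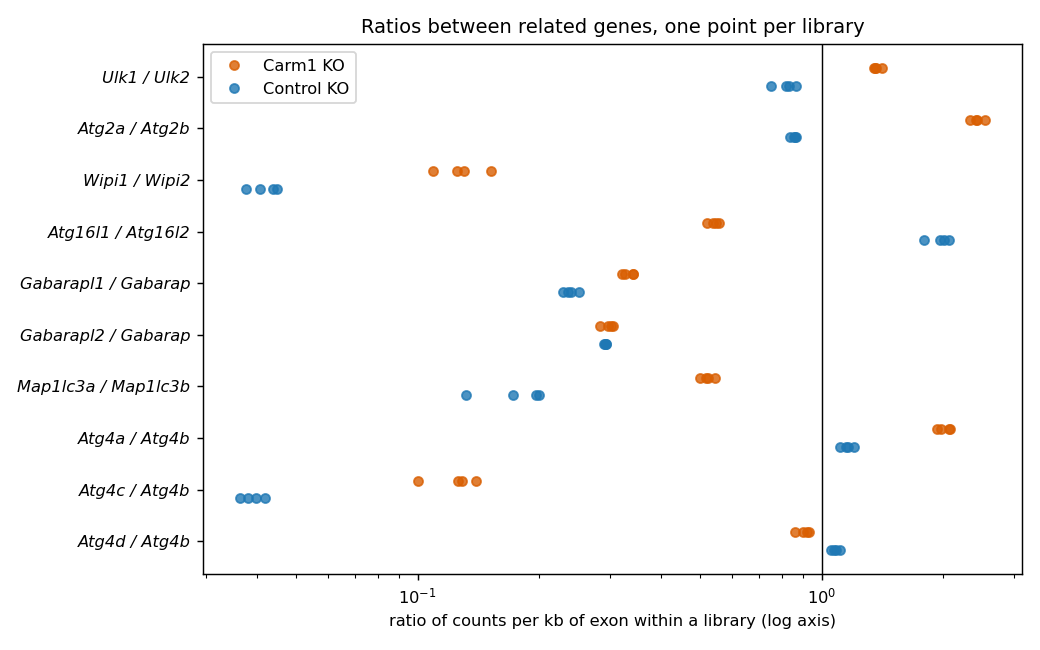
Ratio of counts per kb of exon between related autophagy genes within each library, on a log axis, with 4 points per group and a line at 1. The groups are apart for all pairs but Gabarapl2 and Gabarap, and the ratios of Atg2a to Atg2b, Ulk1 to Ulk2, Atg16l1 to Atg16l2 and Atg4d to Atg4b lie on different sides of 1 in the 2 groups with these exon lengths.

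Levels were also ordered per kb of exon on the TMM scale. Gabarap, at 92.6 ± 1.77 CPM per kb in Carm1 KO and 77.6 ± 0.735 in Control KO libraries, and Sqstm1, at 74.3 to 77.5 in Carm1 KO and 69.0 to 72.1 in Control KO libraries, were the most abundant members in both arms. They kept ranks 1 and 2 when the longest coding transcript set the length. Atg12 ranked 3 in Carm1 KO and 9 in Control KO libraries, at 31.7 ± 1.18 and 16.8 ± 0.245 CPM per kb, but 14 and 23 by transcript length. Its neighbour Gabarapl1, at 30.8 ± 0.364 CPM per kb in Carm1 KO libraries, was within the spread of Atg12. Atg3 ranked 10 in Carm1 KO and 3 in Control KO libraries, at 15.3 ± 0.587 and 24.2 ± 0.532 CPM per kb. Wipi1, Atg4c and Optn were the 3 lowest in Carm1 KO and in Control KO libraries, and none of them exceeded 1 CPM per kb of exon on average. By transcript length Wipi1 was at 1.29 ± 0.186 CPM per kb in Carm1 KO libraries.

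Other genes of the pathway were taken from 6 lists of regulators and partners and moved in both directions. The counts for each list stand beside 44.5% higher and 43.2% lower over all genes tested, so movement both ways is not particular to them. Among 14 tested genes of autophagosome membrane sources and regulators, 7 rose and 7 fell, and 4 fell with upper-quartile factors. Their log2 fold changes had a median of 0.04. Tecpr1, which binds ATG5 and lipids on lysosomes and autophagosomes, rose 1.68-fold to 427 ± 6.87 CPM in Carm1 KO, against 254 ± 4.79 CPM in Control KO libraries. Atg9b, a homologue of Atg9a, rose 2.99-fold to 17.1 ± 1.01 CPM in Carm1 KO, against 5.74 ± 0.321 CPM in Control KO libraries. Bcl2, a survival factor that binds Beclin 1, fell to 106 ± 3.28 CPM in Carm1 KO, against 798 ± 8.23 CPM in Control KO libraries (log2 fold change -2.91 ± 0.024), the largest fall in these lists among genes with a mean of at least 2 CPM.

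Of 14 genes for fusion of autophagosomes with lysosomes, 7 rose, 6 fell and 1 did not pass, and 4 rose without Control KO replicates 1, 3 or 4. Stx17, the syntaxin of the autophagosome, rose 2.38-fold to 41.4 ± 0.567 CPM in Carm1 KO, against 17.4 ± 0.853 CPM in Control KO libraries. Its partner Snap29 fell (log2 fold change -0.68 ± 0.031) to 35.8 ± 0.880 CPM in Carm1 KO, against 57.3 ± 1.43 CPM in Control KO libraries. The small GTPase gene Rab7 and the HOPS tethering subunit gene Vps16 fell 1.49-fold and 1.53-fold. Of 15 tested genes of other selective autophagy receptors, 6 rose and 9 fell. Calcoco1, a receptor for endoplasmic reticulum and Golgi, rose 4.47-fold to 136 ± 1.34 CPM in Carm1 KO, against 30.5 ± 1.04 CPM in Control KO libraries, while the mitophagy receptor gene Bnip3 fell 2.17-fold to 50.2 ± 1.61 CPM in Carm1 KO, against 109 ± 1.64 CPM in Control KO libraries. The mitochondrial proteins Phb2 and Fkbp8, the most abundant of the list, were lower, 1.48-fold and 1.14-fold, and Fkbp8 turned to a log2 fold change of 0.032 with upper-quartile factors.

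The upstream nutrient sensors moved in both directions as well, as did all genes tested (44.5% higher and 43.2% lower). Among 22 genes of mTORC1, the kinase complex that restrains ULK1, and of its control, 8 rose, 12 fell and 2 did not pass. The balance turned with the scaling, to 11 higher and 8 lower with upper-quartile factors and 10 higher and 8 lower with library totals. Genes whose products restrain mTORC1 were found on both sides. Sesn1, Sesn3 and Ddit4 rose 2.44-fold, 1.71-fold and 1.54-fold, while Tsc1, named after its value was seen, fell 1.37-fold and Sesn2 did not pass. In this list Ddit4 was at 344 ± 7.80 CPM in Carm1 KO and 223 ± 6.07 CPM in Control KO libraries. Rragd, a GTPase that helps place mTORC1 on lysosomes, fell 5.77-fold to 3.36 ± 0.278 CPM in Carm1 KO, against 19.4 ± 0.573 CPM in Control KO libraries. Of 6 tested genes of AMPK, the energy-sensing kinase that activates ULK1, and its upstream kinase, 3 rose and 2 fell, with the catalytic subunit Prkaa1 and the gamma subunit Prkag1 lower (log2 fold changes -0.33 and -0.47), the beta subunit Prkab2 1.89-fold and the upstream kinase Stk11 1.09-fold higher.

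Among the 7 TFEB and FOXO transcription factor genes, whose products switch on autophagy and lysosome genes, 5 rose and 2 fell. Foxo1 was at 189 ± 2.13 CPM in Carm1 KO and 107 ± 2.37 CPM in Control KO libraries (log2 fold change 0.82 ± 0.024, adjusted p = 6.7e-30). Foxo3 rose 1.41-fold. Tfeb, named after its value was seen, rose 1.40-fold to 21.9 ± 1.14 CPM in Carm1 KO, against 15.6 ± 0.474 CPM in Control KO libraries. Its relative Tfe3 fell 1.52-fold to 21.3 ± 0.423 CPM in Carm1 KO, against 32.4 ± 0.419 CPM in Control KO libraries. The other gene that fell, Tfec, was likewise named after its value was seen and is known from macrophages. It was at 0.0122 CPM in Carm1 KO and 0.807 CPM in Control KO libraries. The Carm1 KO level rests on 1, 0, 1 and 0 counts, so the size of this fall is poorly known.

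**Figure D5:**
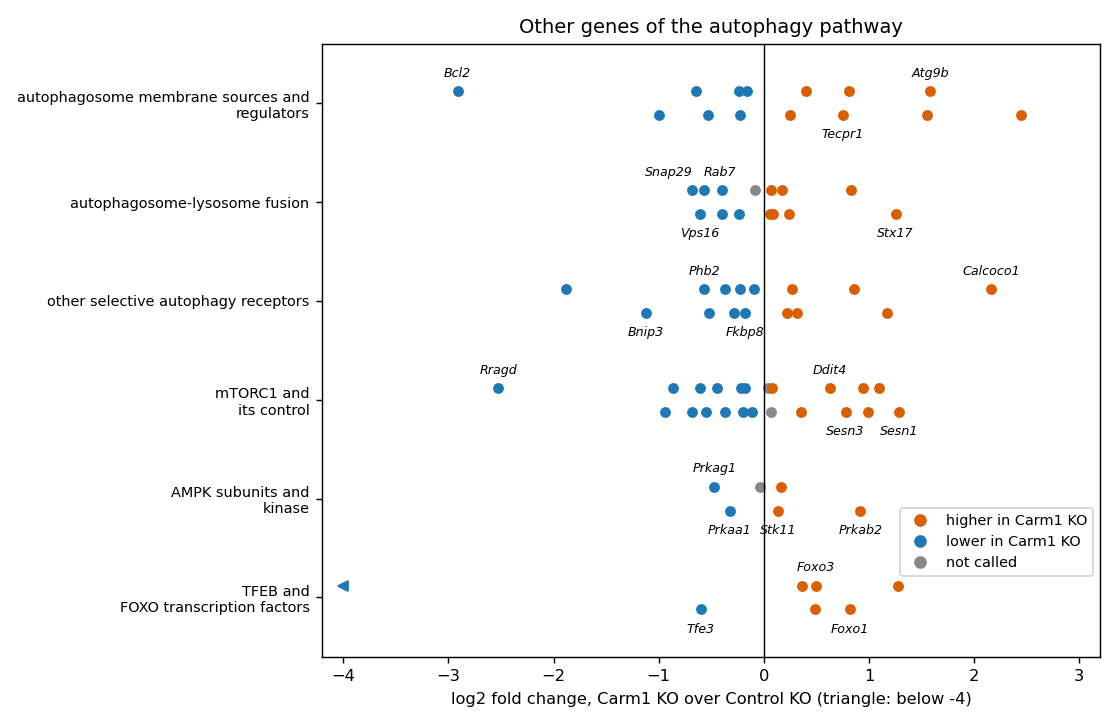
Log2 fold change, Carm1 KO over Control KO, of the tested genes of 6 further lists of the autophagy pathway, with the genes taken by the naming rule labelled. Each list holds genes on both sides of 0, and Tfec, drawn as a triangle, lies below -4.

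Markers of other cell types moved in the same libraries and are given as summed levels. The 6 neutrophil markers summed to at most 0.426 CPM in Carm1 KO and 14.4 to 16.3 CPM in Control KO libraries, with S100a8 and S100a9 at 0 counts in Carm1 KO libraries and Mpo the most abundant. The 8 B cell markers summed to 931 to 957 CPM in Carm1 KO and 274 to 281 CPM in Control KO libraries, nearly all of it Ighm. Cd79b was at 17.1 ± 0.886 CPM in Carm1 KO and 5.71 ± 0.248 CPM in Control KO libraries, whereas Igkc went the other way, at 0.306 ± 0.144 CPM in Carm1 KO and 17.5 ± 0.674 CPM in Control KO libraries. The macrophage and monocyte list was led by Lyz2 and Mpeg1, at 0.148 and 2.87 CPM in Carm1 KO and 83.1 and 22.4 CPM in Control KO libraries. The 6 dendritic cell markers, led by Batf3 and Itgax, summed to 11.3 to 12.1 CPM in Carm1 KO libraries. In Control KO libraries they summed to 3.88 to 4.30 CPM. Batf3 alone was at 8.01 CPM in Carm1 KO and 0.397 CPM in Control KO libraries. Of the 5 tested markers of this list, 3 were higher and 2, Flt3 and Xcr1, lower in Carm1 KO libraries. The 4 CD4 T cell markers, led by Zbtb7b and Cd40lg, summed to 38.3 to 41.8 CPM in Carm1 KO libraries. Their sum in Control KO libraries was 8.65 to 9.28 CPM. Zbtb7b alone was at 33.7 CPM in Carm1 KO and 4.82 CPM in Control KO libraries. Cd4 itself was scarce, at 0.782 CPM in Carm1 KO and 0.168 CPM in Control KO libraries. The 5 natural killer cell markers, led by Klrb1c and Ncr1, summed to 1.20 to 1.78 CPM in Carm1 KO and 5.46 to 6.33 CPM in Control KO libraries. The 6 erythroid markers, led by Hbb-bs and Hba-a1, summed to 0.167 to 0.451 CPM in Carm1 KO and 4.84 to 5.43 CPM in Control KO libraries. Of the 6 melanoma markers, Mlana, Tyr, Dct, Tyrp1 and Sox10 were at 0 counts in Carm1 KO libraries, Tyr, Dct, Tyrp1 and Sox10 at 0 in Control KO libraries, and Pmel was at 12.7 ± 0.563 CPM in Carm1 KO and 3.43 ± 0.147 CPM in Control KO libraries.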

How the data were processed

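Each library has a deposited file of counts, whole numbers for each Ensembl gene, beside the gene's exons and their length. The authors counted genes with RSEM against mm10, as the labels and the submitters' processing notes give it, from paired 150 bp reads of a TruSeq library that does not mark strand. RSEM gives estimates that need not be whole, and how the whole numbers arose is not given in the sources used here, nor are the aligner, annotation, strand setting or versions. Reads of overlapping or similar genes could be split or dropped in that step. Symbols came from GENCODE M21 (48970 of 49315 identifiers).

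Genes were kept by edgeR's filterByExpr, scaled by TMM and tested with robust quasi-likelihood F tests (edgeR 4.0.16, R 4.3.3, two-sided), adjusted by Benjamini-Hochberg over 14970 genes at 0.05. All 35 members passed the filter. The step was tested on simulated counts in which 50 genes each were changed 1.25-fold, 1.5-fold, 2-fold and 4-fold. Of these, 74%, 82%, 98% and 98% were recovered, and 13 of 14770 unchanged genes were called. With so few genes changed, the simulation could not check the scaling between the groups. A count of 3 in a library corresponds to 0.0724 to 0.0799 CPM without TMM factors, which covers counting error only. Within groups, chi-square values per degree of freedom were 1.45 to 13.5 over 12 pairs, and no library was merged with another. This does not make technical replicates independent cultures, and n counts libraries.

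The members and gene lists were chosen with earlier results of these data known. Named genes are all members and, per further list, the 2 most abundant genes and the largest rise and fall among called genes with a mean of at least 2 CPM. Alternatives were RLE and upper-quartile factors, library totals, filters, limma-voom 3.58.1, DESeq2 1.42.0, a test against 1.5-fold, a replicate block, no mitochondrial genes, each library left out, and transcript lengths.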

Additional observations from a re-analysis of the deposited data

Results flagged for a closer look

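In 5 of the 70 groups of 4 libraries examined (35 members in 2 arms), 1 library stood apart from the other 3 by more than Dixon's limit, which chance alone does in about 1 in 20 groups. All 5 were in the Carm1 KO arm. Replicate 4 was high for Atg4b (50.4 CPM) and Tax1bp1 (232 CPM) and low for Atg16l1 (36.2 CPM), and replicate 2 was high for Uvrag (83.1 CPM) and low for Atg4a (29.7 CPM). For each of these 5 genes the groups did not overlap, which also held for 33 of the 35 members and 83.4% of all genes tested.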

How the results depend on the processing

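Of the 35 members, 29 kept their direction and their side of the threshold under each of the 17 alternatives other than the test against a 1.5-fold change in which they were tested (Atg4c, Wipi1 and Optn were not tested with at least 5 CPM in at least 4 libraries). The exceptions were Atg4b, Atg5, Atg7, Atg10, Pik3c3 and Pik3r4. The median log2 fold change over all genes shifted by 0.160 with library totals alone and by 0.215 with upper-quartile factors. The larger shift exceeds the size of the differences of 6 members (Atg5, Atg7, Atg10, Pik3c3, Pik3r4 and Sqstm1). With upper-quartile factors 27 members were higher and 6 lower, and 61.0% of all calls were higher, against 50.8% with TMM. Directions turned for Atg5 (0.17 with upper-quartile factors, 0.11 with library totals, 0.046 with at least 5 CPM in at least 4 libraries), Atg7 (0.053 with upper-quartile factors) and Fkbp8 (0.032 with upper-quartile factors). The test against a 1.5-fold change, which asks for more than a difference from 0, called 11 members higher and 2 lower, and 3992 and 3444 of all genes. Without any 1 library, 24 to 26 members were higher and 8 to 9 lower. DESeq2 called 23 members higher and 8 lower, and over all genes 7177 higher and 6974 lower. The replicate block, with numbers that share no label of a common culture and same-numbered correlations of -0.0848 to -0.0509, changed no member's call (26 higher, 8 lower; over all genes 6611 higher and 6420 lower). The lengths of the longest coding transcripts were added after the values were seen. They cancel in the fold of a ratio between related genes, so that fold could not change. Members under 3 CPM in a group (Optn and Atg4c in both, Wipi1 and Map1lc3a in Control KO) rest on the fewest counts, 30 to 110 in a library.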

Other observations

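Some further genes of the pathway lists differed between related members, and all of these were chosen after their values were seen. Pink1, a kinase that marks damaged mitochondria, rose 2.25-fold, to 148 ± 7.22 CPM in Carm1 KO, against 66.1 ± 2.22 CPM in Control KO libraries. Wdr45, which encodes the WIPI4 protein, rose 2.93-fold, to 49.2 to 52.9 CPM in Carm1 KO, against 16.7 to 18.8 CPM in Control KO libraries. Wdr45b, which encodes WIPI3, fell 1.45-fold, to 31.1 ± 0.988 CPM in Carm1 KO, against 45.0 ± 1.67 CPM in Control KO libraries. Tmem41b, a lipid scramblase of the endoplasmic reticulum, fell 1.99-fold, whereas Vmp1, its partner, rose 1.18-fold. In the Ragulator complex, which anchors mTORC1 to lysosomes, Lamtor4 rose 1.92-fold and Lamtor1 and Lamtor3 fell 1.82-fold and 1.61-fold. Rheb, the GTPase that activates mTORC1, fell 1.92-fold, to 40.1 ± 1.01 CPM in Carm1 KO, against 77.0 ± 0.849 CPM in Control KO libraries.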
